A study of Mus musculus with 9 samples.

Results

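The genes described here bind retinoic acid (Crabp1, Crabp2), act as its receptors (Rara, Rarb, Rarg), make it (Aldh1a1, Aldh1a3) or hold back its synthesis (Dhrs3). These 8 genes were picked from the annotation by symbol, with the log2 values of the same arrays already known, so every difference between groups is given for them as a description with no test. All probe sets that carried 1 of the 8 symbols and no other were taken, which gave 11 of the 45101 probe sets on the array. Rarg had 2 probe sets, Aldh1a3 had 3 and the remaining 6 genes had 1 each.

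RNA was measured on 9 Affymetrix mouse arrays: 2 of L-Myc cells, 2 of C-Myc cells, 2 of N-Myc cells and 3 of preSC. The preSC are neuroendocrine lung cells at a stage before cancer, cultured from lungs of mice (mixed C57BL/6 and 129/Sv background) whose conditional Rb, p53 and p130 alleles were recombined by Adeno-Cre virus. The transduced groups are the same cells given a retro-L-Myc, a retro-C-Myc or a retro-N-Myc virus, so all 4 groups share the Rb/p53/p130 genotype. The labels give all of them as free of stroma, and all were grown in medium with 10% bovine growth serum. The labels give the preSC no empty vector, name neither the promoter of the retroviruses nor a clone, and do not say how the replicates were cultured, although the design text calls them biological.

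Retinoic acid is made from vitamin A. Retinol dehydrogenases turn retinol into retinal, retinal dehydrogenases of the ALDH1A family turn retinal into retinoic acid, and DHRS3 reduces retinal back to retinol. Inside the cell CRABP1 and CRABP2 bind retinoic acid. CRABP2 is known to hand it to the nuclear receptors RARA, RARB and RARG, which pair with an RXR receptor on paired DNA half-sites, and CYP26 enzymes degrade it. In the lung the pathway is known for its part in airway branching and alveolar growth, and Rarb is itself a classical target gene of retinoic acid.

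Promoter sequence was available from RefSeq (build GRCm38.p6) for 6 of the 8 genes, as 13 start sites, and the 250 bases before each start were searched on both strands. The motifs were the E-box CACGTG, a sequence that MYC proteins bind as a dimer with MAX, and direct repeats of the half-site ends GTTCA or GGTCA in either combination, spaced as in a DR5 element (spacer of 5 bases) or a DR2 element (spacer of 2 bases). The E-box was found before 1 of the 13 member starts, against 6.02% of 32851 starts of all genes, and a DR5 match before 1 of 13, against 0.21%. No member window held a DR2 match, which 0.292% of all windows had. The 3 windows below are those with a match and that of Crabp1, which was lower in all transduced than in all preSC arrays. Capitals mark the E-box of Rara, 10 to 5 bases before the start, and the DR5 match of Rarb, 52 to 37 bases before the start, and the Crabp1 window has none. A match is only a description of these letters.
Rara, GRCm38.p6 chr11:98937468-98937717, plus strand: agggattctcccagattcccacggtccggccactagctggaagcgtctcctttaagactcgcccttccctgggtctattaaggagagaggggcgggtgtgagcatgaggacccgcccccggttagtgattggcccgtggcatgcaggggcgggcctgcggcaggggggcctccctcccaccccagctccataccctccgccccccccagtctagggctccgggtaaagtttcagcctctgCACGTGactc
Rarb, GRCm38.p6 chr14:16575477-16575726, minus strand: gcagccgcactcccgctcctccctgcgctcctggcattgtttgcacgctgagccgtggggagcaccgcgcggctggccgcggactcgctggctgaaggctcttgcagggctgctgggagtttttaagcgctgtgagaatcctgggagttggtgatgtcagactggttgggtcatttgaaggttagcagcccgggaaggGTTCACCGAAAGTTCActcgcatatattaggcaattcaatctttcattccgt
Crabp1, GRCm38.p6 chr9:54764498-54764747, plus strand: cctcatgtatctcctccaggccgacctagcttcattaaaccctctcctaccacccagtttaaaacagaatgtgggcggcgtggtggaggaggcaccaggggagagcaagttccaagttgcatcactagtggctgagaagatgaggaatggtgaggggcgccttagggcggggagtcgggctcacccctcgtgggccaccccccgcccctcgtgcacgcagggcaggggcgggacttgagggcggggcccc

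Values below are log2 intensities that the authors made with RMA, and their precision is set by how few arrays each group has. The probe sets of the transduced genes gave a mixed check of the labels. On 1 of 3 Mycl probe sets (1422087_at) the L-Myc arrays stood apart with 11.79 and 12.74, against 5.39 to 5.74 in preSC arrays. On 1 of 3 Mycn probe sets (1425922_a_at) the N-Myc arrays stood apart with 9.05 and 8.46, against 6.05 to 6.39 in preSC arrays, whereas the brightest one (1425923_at) was 11.07 to 13.54 in all 6 transduced arrays, against 6.37 to 6.89 in preSC arrays. Myc was 11.22 and 10.68 in C-Myc arrays but also 11.96 and 11.40 in N-Myc arrays, against 6.50, 6.82 and 8.13 in preSC arrays, so Myc does not separate the C-Myc from the N-Myc arrays. Replicates were unevenly alike: the N-Myc arrays differed over 2-fold at 13 probe sets, the L-Myc arrays at 2249, the C-Myc arrays at 3032, preSC 1 and 2 at 29, and preSC 3 differed from them at 1907 and 1807. Separate cultures are not stated for the closest arrays, so p-values measure only the spread between these arrays. The 18S ribosomal RNA control lay between 8.03 and 9.27 in the 6 transduced arrays and between 12.80 and 13.92 in the preSC arrays, and the labels call the C-Myc and N-Myc RNA total and the L-Myc and preSC RNA polyA. The 5′ minus 3′ control probe sets, a measure of RNA and labelling quality, also separated the groups. Dap was -1.68 to -1.51 in transduced arrays, against -3.66 to -3.40 in preSC arrays, and Actb -0.31 to -0.20, against -0.85 to -0.62. Each comparison with preSC coincides with these control differences, and their part in the results, and where probe sets of 1 gene disagree, was not tested. Of 11 neuroendocrine markers, 10 had a probe set, and 9 of these were above the 40th percentile of every array (5.28 to 5.34); the exception was Neurod1. The fibroblast markers Col1a1, Col1a2, Col3a1, Lum and Postn, the endothelial markers Pecam1, Cdh5, Tek and Cldn5 and the leukocyte marker Ptprc lay below that percentile in all 9 arrays. Other listed markers were not silent. Above that percentile in all 9 arrays were Pdgfra (5.46 to 6.41), a fibroblast marker, and Kdr (5.84 to 6.31), an endothelial one. The same held for the leukocyte markers Cd3e (6.03 to 6.70) and Csf1r (5.79 to 6.41). Dcn, Thy1 and Lyz2 split the arrays across the groups. Dcn, a fibroblast proteoglycan gene, was 10.32 in L-Myc 2, 9.69 in C-Myc 2 and 9.32 in preSC 3, against 5.29 to 6.86 in the other 6 arrays. In the same 3 arrays Thy1 was 3.97 to 4.22 and Lyz2, a macrophage and alveolar type 2 gene, 5.61 to 6.76, against 5.04 to 6.49 and 9.31 to 12.31 in the other 6. The part of this split in the results was not tested.

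Crabp1 (1448326_a_at), which encodes a cytosolic retinoic acid binding protein, was lower in all 6 transduced arrays than in every preSC array. Its level was 4.82 and 4.33 in L-Myc arrays, 4.47 and 4.63 in C-Myc arrays and 4.79 and 4.72 in N-Myc arrays, against 8.67, 8.12 and 6.43 in preSC arrays. The difference from preSC was -3.16, -3.19 and -2.98 (SE 0.56 each) for L-Myc, C-Myc and N-Myc. The transduced arrays lay within 0.49 of each other, all below the 40th percentile, so the differences are limited by that floor and their likeness says nothing of the groups being alike, while the preSC arrays spanned 2.24 because preSC 3 was lowest. Without preSC 3 the differences were -3.82, -3.84 and -3.64. Crabp1 entered the list of tested genes only through its preSC values.

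Crabp2 (1451191_at), which encodes the related protein that passes retinoic acid to its receptors, had values of 4.69 and 4.68 in L-Myc arrays, 5.07 and 4.58 in C-Myc arrays, with 5.10 and 4.84 in N-Myc arrays, against 4.40, 4.38 and 4.28 in preSC arrays. All 6 transduced values were above the preSC values, with differences of 0.33, 0.47 and 0.62 (SE 0.16 each) for L-Myc, C-Myc and N-Myc. All 9 values lay below the 40th percentile of their array, so Crabp2 was the 1 gene of the 8 that did not pass the filter on dim probe sets.

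**Figure D1:**
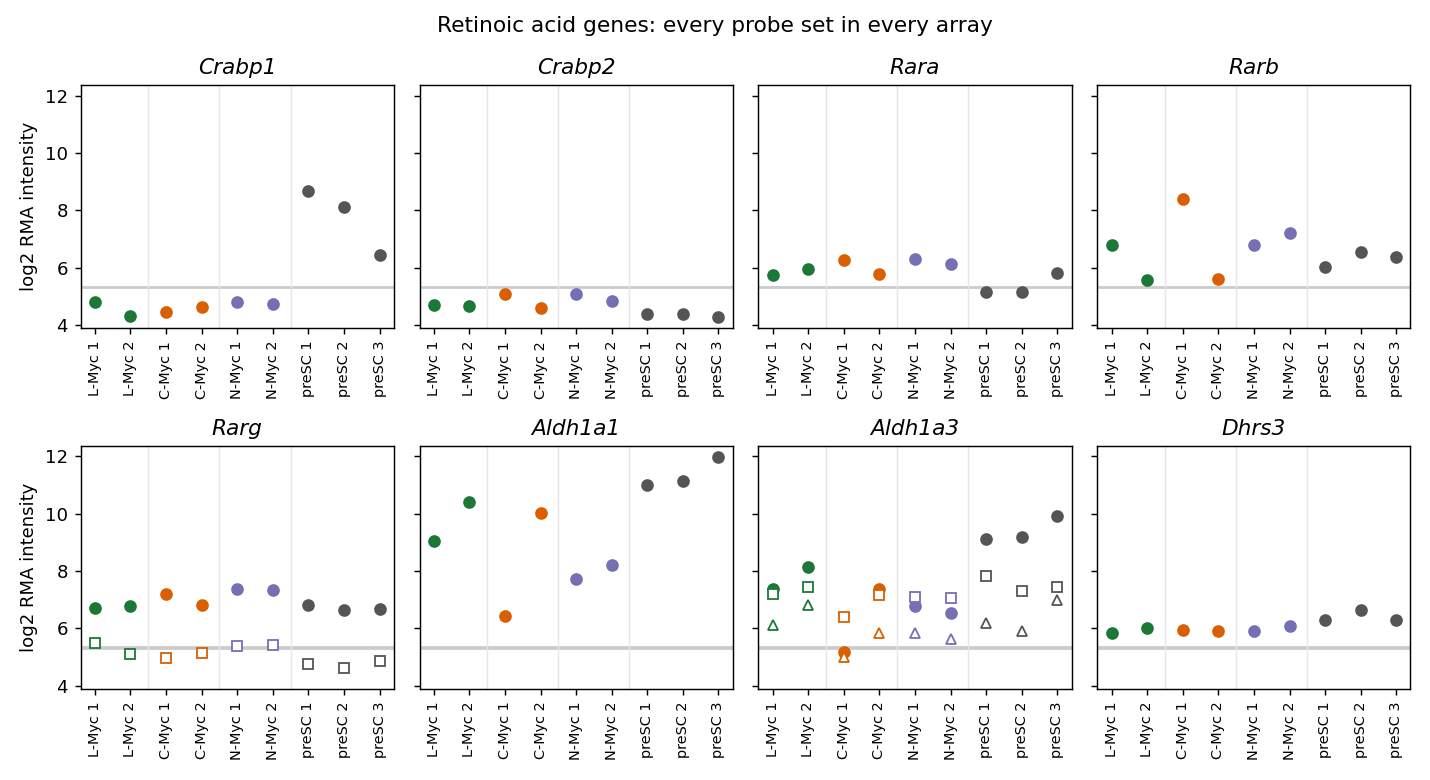
Log2 RMA intensity (vertical axis) of the 11 probe sets of the 8 genes in each of the 9 arrays (horizontal axis, transduced groups left of preSC). Filled circles are the probe set with the highest mean of each gene, open squares and triangles the others, and the grey band is the 40th percentile of the arrays. Levels of different probe sets are not comparable. Crabp1 lies below the band in all 6 transduced arrays, and Aldh1a1 spans 6.43 to 11.99.

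Rara (1450180_a_at), the receptor alpha gene, was 5.73 and 5.97 in L-Myc arrays, 6.26 and 5.78 in C-Myc arrays, with 6.30 and 6.12 in N-Myc arrays, against 5.17, 5.16 and 5.80 in preSC arrays. The N-Myc values were above all preSC values, whereas L-Myc 1 and C-Myc 2 lay below preSC 3. Differences from preSC were 0.47, 0.64 and 0.83 (SE 0.23 each) for L-Myc, C-Myc and N-Myc. Without preSC 3 they were larger, at 0.68, 0.85 and 1.04. The preSC arrays left there, preSC 1 (5.17) and preSC 2 (5.16), lay below the level of the filter on dim probe sets. The differences with preSC 3 rest on these values in part and those without it wholly, so both are limited by that floor.

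Rarg, the receptor gamma gene, was measured with a brighter and a dimmer probe set. On the brighter one (1419415_a_at) it was 6.71 and 6.80 in L-Myc arrays, 7.22 and 6.83 in C-Myc arrays, with 7.37 and 7.35 in N-Myc arrays, against 6.83, 6.64 and 6.68 in preSC arrays. The N-Myc arrays were above the preSC arrays by 0.64 (SE 0.14), C-Myc 1 was also above them, and L-Myc differed by 0.04 (SE 0.14). On the dimmer probe set (1419416_a_at) all 6 transduced arrays, between 4.98 and 5.51, were above the preSC arrays, between 4.63 and 4.88. There the differences were 0.55, 0.31 and 0.63 (SE 0.15 each) for L-Myc, C-Myc and N-Myc. The probe sets thus gave like differences for N-Myc and C-Myc but not for L-Myc. On the dimmer one all preSC arrays, both C-Myc arrays and L-Myc 2 (5.11) lay below the 40th percentile. Its separation and differences are therefore limited by that floor, and their likeness to those of the brighter probe set is a description only.

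Rarb (1454906_at), the receptor beta gene with the DR5 match shown above, split the replicates rather than the groups. It was 6.79 and 5.58 in L-Myc arrays, 8.40 and 5.60 in C-Myc arrays, with 6.79 and 7.21 in N-Myc arrays, against 6.04, 6.54 and 6.39 in preSC arrays. C-Myc 1 was the highest array, and C-Myc 2 and L-Myc 2 were below every preSC array. The differences from preSC were -0.14, 0.68 and 0.68 (SE 0.73 each) for L-Myc, C-Myc and N-Myc. The C-Myc value turned on 1 array: it was -0.73 (SE 0.47) without C-Myc 1 and 2.08 (SE 0.47) without C-Myc 2, and the L-Myc value was 0.47 without L-Myc 2.

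Aldh1a1 (1416468_at), a retinal dehydrogenase gene, had the widest range of the 11 probe sets, 5.56 over the 9 arrays. Its level was 9.06 and 10.42 in L-Myc arrays, 6.43 and 10.03 in C-Myc arrays, with 7.74 and 8.22 in N-Myc arrays, against 10.99, 11.16 and 11.99 in preSC arrays. No transduced array reached the preSC range, and within the transduced arrays C-Myc 1 was lowest, then both N-Myc arrays, then L-Myc 1, C-Myc 2 and L-Myc 2. The differences from preSC were -1.64, -3.15 and -3.40 (SE 0.94 each) for L-Myc, C-Myc and N-Myc. The C-Myc arrays lay 3.60 apart, and the C-Myc difference was -1.35 without C-Myc 1 and -4.95 without C-Myc 2 (SE 0.59 each). In L-Myc it was -0.96 without L-Myc 1.

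Aldh1a3 encodes another retinal dehydrogenase. Its brightest probe set (1448789_at) was 7.37 and 8.16 in L-Myc arrays, 5.18 and 7.38 in C-Myc arrays, with 6.77 and 6.54 in N-Myc arrays, against 9.12, 9.19 and 9.94 in preSC arrays. All transduced arrays were again below all preSC arrays, with C-Myc 1 lowest and L-Myc 2 the highest of them. The differences were -1.65, -3.14 and -2.76 (SE 0.59 each) for L-Myc, C-Myc and N-Myc, and -2.03 in C-Myc without C-Myc 1. The other two probe sets gave smaller differences and their groups overlapped. The second one (1427395_a_at) differed by -0.21, -0.74 and -0.46 (SE 0.24 each), and the dimmest (1417642_at) by 0.09, -0.94 and -0.63 (SE 0.38 each), for L-Myc, C-Myc and N-Myc. C-Myc 1 was the lowest array on both, at 6.40 and 5.00. Where these probe sets lie along the transcript was not analysed here.

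The arrays lowest in Aldh1a1 and Aldh1a3 also stood apart in 1 of the 8 club, alveolar and ciliated markers, Sftpc. This surfactant protein C gene of alveolar type 2 cells was 7.77 and 6.43 in L-Myc arrays, 10.68 and 6.17 in C-Myc arrays, with 10.59 and 11.10 in N-Myc arrays, against 8.42, 8.27 and 6.06 in preSC arrays. C-Myc 1 and both N-Myc arrays were thus highest in Sftpc and lowest in Aldh1a1. Sftpb, another surfactant gene, did not set them apart, at 6.61 and 6.71 in N-Myc arrays and 6.52 in C-Myc 1, within a range of 6.52 to 6.87 over all arrays. Over the 8 markers the summed level ranged from 41.7 to 43.5 in L-Myc, 40.7 to 46.2 in C-Myc, 46.3 to 46.7 in N-Myc and 41.9 to 44.5 in preSC arrays. L-Myc 2, C-Myc 2 and preSC 3, the arrays high in Dcn, were each the highest of their group in Aldh1a1 and on the brightest Aldh1a3 probe set. Sftpc also followed that split across the groups, at 6.06 to 6.43 in these arrays, against 7.77 to 11.10 in the others. The club cell markers Scgb1a1, Scgb3a2 and Cyp2f2 were below the 40th percentile in all 9 arrays. On the brightest Pvt1 probe set, a noncoding gene beside Myc, the 3 arrays highest in Sftpc stood apart with 13.58 and 13.63 in N-Myc arrays, 13.11 in C-Myc 1, against 7.51 in C-Myc 2 and 5.40 to 6.69 in the remaining arrays. The part of these differences in the Aldh1a1 and Aldh1a3 values was not tested. In bulk RNA, fewer cells expressing a gene and less RNA per cell cannot be told apart.

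**Figure D2:**
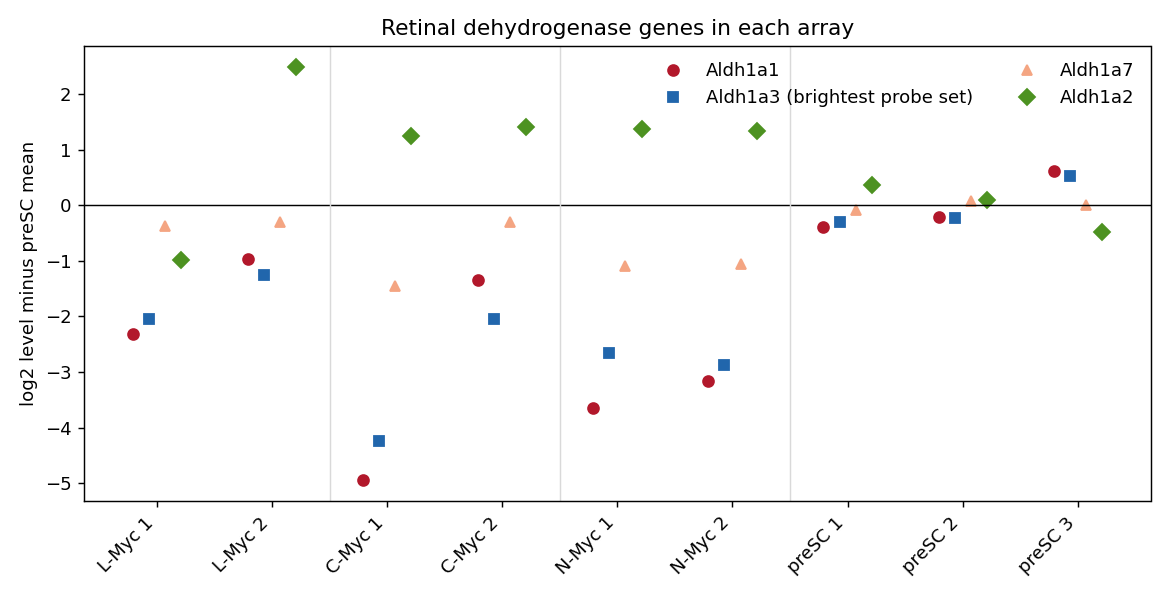
Log2 level minus the preSC mean (vertical axis) of the 4 genes Aldh1a1, Aldh1a3, Aldh1a7 and Aldh1a2 in each array (horizontal axis). Each point is 1 array and the line at 0 is the preSC mean. Aldh1a3 is shown by its brightest probe set only. Aldh1a1 and this Aldh1a3 probe set are below 0 in all 6 transduced arrays and lowest in C-Myc 1, while Aldh1a2 is above 0 in all of them but L-Myc 1.

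Dhrs3 (1448390_a_at), whose product reduces retinal to retinol, was 5.85 and 6.03 in L-Myc arrays, 5.94 and 5.91 in C-Myc arrays, with 5.92 and 6.09 in N-Myc arrays, against 6.31, 6.63 and 6.30 in preSC arrays. The transduced arrays lay within 0.24 of each other and all below preSC. The differences were -0.47, -0.49 and -0.41 (SE 0.14 each) for L-Myc, C-Myc and N-Myc, small beside those of Crabp1 and Aldh1a1 but nearly the same in the 3 groups.

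**Figure D3:**
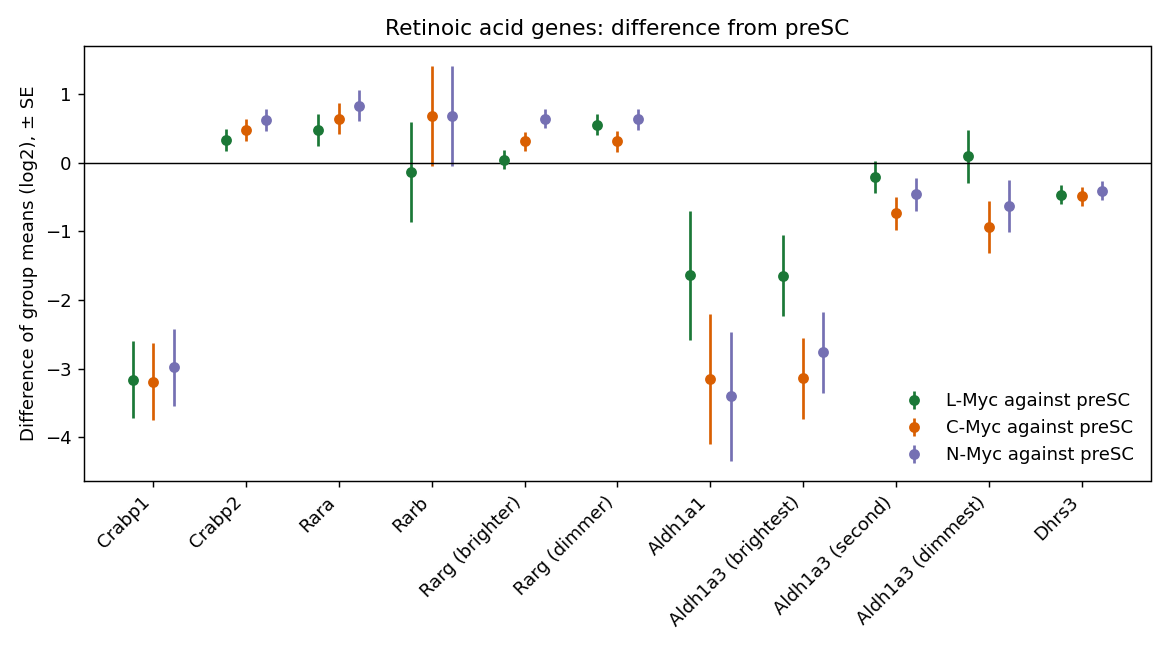
Difference of group means from preSC on the log2 scale (vertical axis, points, with the standard error of the fit as bars) for each of the 11 probe sets (horizontal axis). Crabp1 differs by about 3 in each group, with its transduced values at the floor of the arrays. Aldh1a1 and the brightest Aldh1a3 probe set are lower by less in L-Myc (-1.64 and -1.65) than in the other groups, a contrast that was not tested. Without C-Myc 1 the C-Myc differences were -1.35 and -2.03, so for Aldh1a1 the order of L-Myc and C-Myc turned on that array. The receptor genes stay between -0.14 and 0.83.

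Between C-Myc and N-Myc the members differed by -0.37 to 0.24 over the 11 probe sets. For Aldh1a1 the difference was 0.24 (SE 1.03), being 2.04 without C-Myc 1 and -1.56 without C-Myc 2. No gene of the 12976 tested passed in this comparison (0% by limma with Benjamini-Hochberg adjustment, and 541 at an unadjusted p under 0.05).

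For scale, the limma fit over all genes called 1748 of 12976 genes in L-Myc against preSC (13.5%), 3049 in C-Myc (23.5%) and 3741 in N-Myc (28.8%). No such calls are given for the members, since those contrasts were known when the genes were picked. The median difference of the 7 members that passed the filter was -0.47, -0.49 and -0.41, against -0.04, -0.05 and -0.03 over all genes tested, which is a description only, since Crabp1 passed through its preSC values alone. The 6 transduced and 3 preSC arrays did not overlap at 5 of the 10 member probe sets that passed the filter, and at 38.4% of the 29140 probe sets that passed it. Of those 5, Crabp1 passed only through preSC arrays and the dimmer Rarg probe set only through transduced arrays. The member share is therefore a description only. Centring the arrays on the genes tested moved all differences from preSC by 0.14 to 0.17 and turned the direction of no member difference, except that Rarb in L-Myc became 0.00.

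The genes whose pattern over the 9 arrays was most like that of a member were found among all genes tested, for the 4 members with a range of at least 2. Those nearest to Crabp1 were Cd44, a hyaluronan receptor gene (Pearson r = 0.992), Ifi27l2a (0.985) and Ttc39c (0.984). Cd44 was 4.25 and 3.95 in L-Myc arrays, 4.16 and 4.07 in C-Myc arrays, with 4.22 and 4.06 in N-Myc arrays, against 5.94, 5.95 and 5.13 in preSC arrays. Nearest to Aldh1a1 were Cd9, a tetraspanin gene (0.995), Cntrob, which encodes centrobin (0.995), and Smim14 (0.991). Nearest to Aldh1a3 were Phyh, a peroxisomal hydroxylase gene (0.989), Ube2l6, a conjugating enzyme gene (0.985), and Zfp612 (0.984). For Rarb they were Fam122b (0.947), Dnaja3, a mitochondrial co-chaperone gene (0.947), and Cep43 (0.941). These values describe 9 arrays that share the preSC separation and carry no test.

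The rest of the retinoid pathway was followed with a list of 62 other genes, of which 56 had a probe set and 41 passed the filter. In L-Myc against preSC 1 of the 41 rose and 4 fell, while 36 missed the threshold, with a median of -0.12 against -0.04 for all genes. In C-Myc 2 rose and 6 fell (median -0.11 against -0.05), and in N-Myc 4 rose and 8 fell (median -0.10 against -0.03). The called shares of 12.2%, 19.5% and 29.3% were close to the 13.5%, 23.5% and 28.8% of all genes. With arrays centred on the genes tested the splits were 2 higher and 3 lower, 6 and 4, and 8 and 5. Adjusted p-values here are from limma over all 12976 genes, and 6 of the 25 calls passed whichever single array was left out.

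Among carriers, 4 of 7 genes with a probe set were tested. Fabp5, a fatty acid binding protein gene whose product is known to carry retinoic acid to a PPAR receptor, rose in all 3 groups. It was 13.71 and 13.68 in L-Myc arrays, 13.88 and 13.57 in C-Myc arrays, with 13.89 and 13.88 in N-Myc arrays, against 12.86, 12.91 and 12.52 in preSC arrays. The changes were 0.93, 0.96 and 1.12 (SE 0.16 each, limma adjusted p = 0.0141, 0.00889 and 0.00512), and a dimmer Fabp5 probe set gave 1.69, 1.81 and 1.97. All transduced arrays were above all preSC arrays, the opposite of Crabp1. The L-Myc call was lost without either L-Myc array (highest limma adjusted p = 0.0659) and the N-Myc call without either N-Myc array (highest limma adjusted p = 0.0513).

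Ttr encodes transthyretin, which carries the retinol binding protein in blood. It was 10.58 and 8.83 in L-Myc arrays, 9.90 and 8.59 in C-Myc arrays, with 10.63 and 10.80 in N-Myc arrays, against 11.95, 11.86 and 11.40 in preSC arrays. It fell by 2.49 (SE 0.55, limma adjusted p = 0.0187) in C-Myc, a call lost without C-Myc 2, preSC 1 or preSC 2 (highest limma adjusted p = 0.0700). In L-Myc it differed by -2.03 (limma adjusted p = 0.0503, and 0.0286 without L-Myc 1), and in N-Myc by -1.02 (limma adjusted p = 0.198). Stra6, the membrane receptor for retinol uptake, differed by 0.10, 0.09 and 0.16 (SE 0.16 each) and passed in none of the 3 groups.

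Of 11 oxidoreductase genes tested, none passed the threshold in L-Myc, 1 rose in C-Myc, and 2 rose and 1 fell in N-Myc. These shares of 0%, 9.09% and 27.3% were below the 13.5%, 23.5% and 28.8% of all genes. The genes that rose, named after their values were seen, were Adh5, a widely expressed alcohol dehydrogenase gene, in C-Myc (0.71, SE 0.14, limma adjusted p = 0.0136) and N-Myc (0.67, SE 0.14, limma adjusted p = 0.0143), and Adh7, an alcohol dehydrogenase gene whose product can oxidise retinol, in N-Myc (0.47, SE 0.15, limma adjusted p = 0.0481). In L-Myc Adh5 differed by 0.50 (SE 0.14, limma adjusted p = 0.0552). There it passed with centred arrays (limma adjusted p = 0.0276) and with the mean of its probe sets (limma adjusted p = 0.035). Without 1 array the Adh5 calls held in 3 of 5 cases in C-Myc (highest limma adjusted p = 0.0585) and 2 of 5 in N-Myc (highest limma adjusted p = 0.108), and the Adh7 call in none (lowest limma adjusted p = 0.0594). Aldh1a7, a close mouse relative of Aldh1a1, was 13.41 and 13.48 in L-Myc arrays, 12.33 and 13.47 in C-Myc arrays, with 12.68 and 12.72 in N-Myc arrays, against 13.70, 13.85 and 13.78 in preSC arrays. It fell by 1.08 (SE 0.29, limma adjusted p = 0.0318) in N-Myc, but the call was lost whichever of the 5 arrays was left out (limma adjusted p = 0.0658 to 0.152), with the replicate block and with centred arrays. C-Myc 1 was its lowest array, as for Aldh1a1, and in C-Myc the difference was -0.87 (limma adjusted p = 0.0684). Whether the 2 probe sets separate these similar transcripts was not tested.

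Aldh1a2, a further gene of the family, went the other way without passing. It was 6.75 and 10.23 in L-Myc arrays, 8.98 and 9.15 in C-Myc arrays, with 9.11 and 9.07 in N-Myc arrays, against 8.11, 7.83 and 7.26 in preSC arrays. L-Myc 1 was the lowest and L-Myc 2 the highest of the 9 arrays, and the C-Myc and N-Myc arrays were all above preSC. Differences were 0.75, 1.33 and 1.36 (SE 0.86 each, limma adjusted p = 0.60, 0.295 and 0.268). Fitted with only the arrays of the groups compared, the C-Myc and N-Myc differences passed (limma adjusted p = 0.0398 and 0.0105), but the L-Myc value turned on 1 array, being 2.50 without L-Myc 1 (limma adjusted p = 0.0199) and -0.99 without L-Myc 2 (limma adjusted p = 0.131). Each of these fits assumes that the lone L-Myc array varies like the other groups. Rdh10, the retinol dehydrogenase of the first step, differed by -0.11, 0.02 and -0.12 (SE 0.12 each) and passed nowhere. Of the degrading enzymes, Cyp26b1 differed by -0.08, 0.10 and -0.12 (SE 0.15 each) without passing, and Cyp26a1, at 4.37 to 5.11 in the 9 arrays, was below the 40th percentile throughout and was not tested.

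All 11 partner receptor and coregulator genes that had a probe set were tested. In L-Myc 3 fell, in C-Myc 3 fell, and in N-Myc 3 fell and 1 rose. The called shares were 27.3%, 27.3% and 36.4%, beside 13.5%, 23.5% and 28.8% of all genes, and are a description only. Crebbp, which encodes the acetyltransferase CBP, a coactivator of many nuclear receptors, was 9.72 and 9.23 in L-Myc arrays, 9.47 and 9.35 in C-Myc arrays, with 9.76 and 9.44 in N-Myc arrays, against 10.98, 10.93 and 10.85 in preSC arrays. On that brightest probe set it fell in all 3 groups, with changes of -1.45, -1.51 and -1.32 (SE 0.18 each, limma adjusted p = 0.00610, 0.00346 and 0.00433), and these 3 calls passed whichever array was left out. The 3 other Crebbp probe sets ranged from -0.72 to 0.55, from -0.79 to 0.41 and from -0.69 to 0.70, so Crebbp has no single direction, and its calls were lost with the mean of its probe sets.

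Ncoa3, a steroid receptor coactivator gene, fell in all 3 groups, with changes of -1.21, -1.27 and -1.47 (SE 0.21 each, limma adjusted p = 0.0128, 0.00753 and 0.00459). Its second probe set differed by -0.03, 0.35 and 0.50, again with no single direction, and the L-Myc call was lost without either L-Myc array (highest limma adjusted p = 0.0602). Ep300, which encodes the related acetyltransferase p300, was 9.03 and 8.90 in L-Myc arrays, 9.39 and 8.88 in C-Myc arrays, with 9.77 and 9.35 in N-Myc arrays, against 9.80, 9.87 and 10.07 in preSC arrays. It fell in L-Myc (-0.95) and C-Myc (-0.78, SE 0.20 each, limma adjusted p = 0.0252 and 0.0322) and differed by -0.35 in N-Myc (limma adjusted p = 0.226). The Ep300 call in L-Myc was lost without any 1 of the 5 arrays (limma adjusted p = 0.0615 to 0.118), and that in C-Myc was lost in 4 of 5 cases, holding without C-Myc 1 (limma adjusted p = 0.0321), and was also lost with centred arrays (limma adjusted p = 0.0569).

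Nrip1 encodes a corepressor that is itself known as a retinoic acid target. It was 8.45 and 8.54 in L-Myc arrays, 5.19 and 8.56 in C-Myc arrays, with 5.56 and 5.14 in N-Myc arrays, against 8.60, 8.56 and 9.02 in preSC arrays. C-Myc 1 and both N-Myc arrays were low and all other arrays alike, the same 3 arrays that were lowest in Aldh1a1. It fell by 3.37 (SE 0.82, limma adjusted p = 0.0223) in N-Myc, a call lost without any 1 of the 5 arrays (limma adjusted p = 0.0528 to 0.132) and with the replicate block. In C-Myc it differed by -1.85 (limma adjusted p = 0.142), by -3.54 (limma adjusted p = 0.00116) without C-Myc 2 and by -0.17 (limma adjusted p = 0.686) without C-Myc 1. Between C-Myc and N-Myc it passed only without C-Myc 1 (3.21, limma adjusted p = 0.00711), and in all these fits the lone C-Myc array is assumed to vary like the others. The 5 other Nrip1 probe sets ranged from -3.67 to -0.09 in N-Myc.

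Of the RXR genes, partners of all 3 retinoic acid receptors, Rxrb rose by 0.47 (SE 0.15, limma adjusted p = 0.0480) in N-Myc, lost without any 1 of the 5 arrays (limma adjusted p = 0.0620 to 0.285), and differed by 0.31 and 0.44 in L-Myc and C-Myc. Rxrg differed by 0.24, 0.52 and 0.48 (SE 0.16 each) and Rxra by 0.07, -0.12 and 0.68 (SE 0.48 each) without passing. With centred arrays Rxrg passed in C-Myc (0.69, limma adjusted p = 0.0207) and N-Myc (0.65, limma adjusted p = 0.0212). The Rxrg values of preSC (5.17, 4.93 and 5.09) and L-Myc 1 (5.23) lay below the level of the filter on dim probe sets. Rxrg thus passed that filter only through transduced arrays, so its differences and these passes are limited by that floor. Rxrb passed with centred arrays in C-Myc (0.61, limma adjusted p = 0.0216). Rxra passed in N-Myc on its second-brightest probe set (0.79, limma adjusted p = 0.0155). Rxra was 7.80 in L-Myc 2, 7.50 in C-Myc 2 and 7.41 in preSC 3, and between 8.52 and 9.05 in the remaining 6 arrays, so it split the arrays as Dcn did, in the opposite direction.

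**Figure D4:**
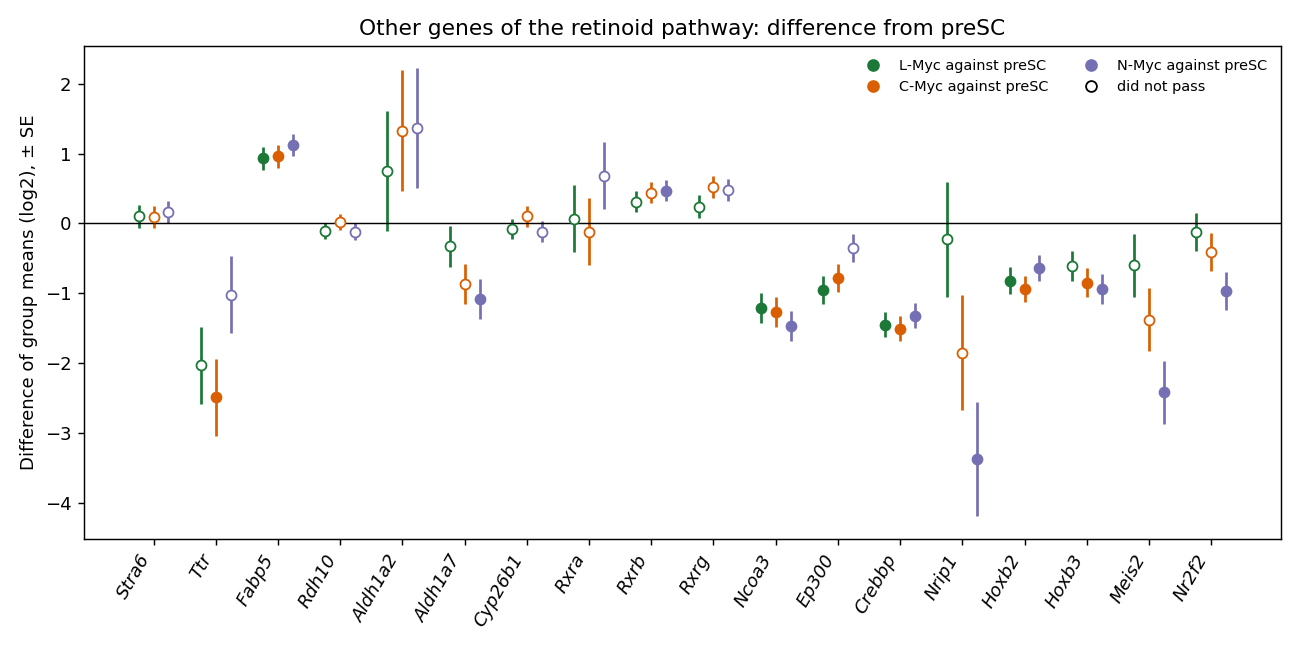
Difference of group means from preSC on the log2 scale (vertical axis, points, with the standard error of the fit as bars) for the tested retinoid genes outside the 8 that were named by rule (horizontal axis). Adh5 and Adh7, named after their values were seen, are not shown. Filled points passed the limma test and open points did not. Fabp5 is higher and Crebbp, Ncoa3 and Hoxb2 lower in all 3 groups on their brightest probe sets, and Nrip1 and Meis2 are lowest in N-Myc (-3.37 and -2.42).

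Of 19 retinoic acid responsive genes with a probe set, 14 were tested: 1 fell in L-Myc, 2 in C-Myc and 4 in N-Myc, and none rose. These shares of 7.14%, 14.3% and 28.6% were at or below the 13.5%, 23.5% and 28.8% of all genes. Hoxb2, a homeobox gene with a known retinoic acid response, was 10.18 and 9.88 in L-Myc arrays, 9.99 and 9.83 in C-Myc arrays, with 10.24 and 10.17 in N-Myc arrays, against 11.08, 10.95 and 10.52 in preSC arrays. It fell in all 3 groups, with changes of -0.82, -0.94 and -0.64 (SE 0.19 each, limma adjusted p = 0.0345, 0.0153 and 0.0436). Without 1 array the L-Myc and N-Myc calls held in 1 of 5 cases each, without preSC 3 (lowest limma adjusted p = 0.0242 and 0.0217), and the C-Myc call was lost without preSC 2 (limma adjusted p = 0.0569). With centred arrays the L-Myc and N-Myc calls were lost (limma adjusted p = 0.0613 and 0.103), as was the L-Myc call with only the arrays of the groups compared (limma adjusted p = 0.0737). Its neighbour Hoxb3 fell in C-Myc (-0.85) and N-Myc (-0.94, SE 0.21 each, limma adjusted p = 0.0276 and 0.0177) and differed by -0.61 in L-Myc. The C-Myc call held without 1 array only where that was C-Myc 2 (limma adjusted p = 0.00712) and was lost with centred arrays (limma adjusted p = 0.0532), and the N-Myc call was lost without either N-Myc array (highest limma adjusted p = 0.107). A second Hoxb3 probe set differed by 0.45, 0.39 and 0.55 for C-Myc, N-Myc and L-Myc, so its direction is unsettled. Hoxb1 lay between 3.33 and 3.74 and Nr2f1 between 3.12 and 4.47 in all arrays, both untested.

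Meis2, a homeobox cofactor gene, was 12.00 and 11.88 in L-Myc arrays, 10.27 and 12.05 in C-Myc arrays, with 10.21 and 10.03 in N-Myc arrays, against 12.32, 12.58 and 12.72 in preSC arrays. C-Myc 1 and the N-Myc arrays were again the low ones. It fell by 2.42 (SE 0.45, limma adjusted p = 0.00983) in N-Myc, and its 3 other probe sets gave -2.56 to -1.91, though the call was lost without either N-Myc array (highest limma adjusted p = 0.0756). In C-Myc it differed by -1.38 (limma adjusted p = 0.0631), by -2.27 (limma adjusted p = 0.00164) without C-Myc 2 and by -0.49 (limma adjusted p = 0.149) without C-Myc 1, again with 1 C-Myc array in the fit. Nr2f2, an orphan receptor gene, fell by 0.97 (SE 0.27, limma adjusted p = 0.0320) in N-Myc, where its 5 other probe sets ranged from -1.16 to 0.19, and differed by -0.12 in L-Myc and -0.41 in C-Myc. That Nr2f2 call held in 1 of 5 cases without 1 array, without preSC 3 (limma adjusted p = 0.0331), and was lost with centred arrays.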

How the data were processed

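The deposited values are on the log2 scale, and the submitters' processing notes name RMA, affy and R 3.0.1 for them. RMA corrects background and forces the arrays to 1 distribution, so a change of all transcripts in 1 direction would be lost. The affy version and the build are not given in the sources used here. Array medians lay between 6.02 and 6.07, and no further scaling was applied.

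Of 45101 probe sets, 34945 had 1 gene symbol in the platform annotation, 932 had several and were given no gene, 9211 had none, and 64 were controls. Each of 18193 genes was represented by its probe set with the highest mean. A gene was tested if it lay above the 40th percentile of an array in at least 2 arrays, which left 12976. The 4 group means were fitted to all 9 arrays with limma 3.58.1 in R 4.3.3 (5 residual degrees of freedom), two-sided, with Benjamini-Hochberg adjustment over all genes tested and a threshold of 0.05. The script was tested on simulated data. Levels and differences of the 11 member probe sets come from the same fit over all probe sets.

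The members and all lists were chosen with earlier results of these data known. Other retinoid genes were named by a rule: those past the threshold in each comparison, largest change first and at most 6, and Rxra, Rxrb, Rxrg, Stra6, Aldh1a2, Cyp26a1, Cyp26b1, Hoxb1, Nr2f1, Nr2f2 and Rdh10 whatever their value. Other genes of that rule are not reported here. Alternatives were no filter, a filter at the 60th percentile, arrays centred on the genes tested, the mean of probe sets or the second-brightest one, only the groups compared, the replicate block, and each array left out.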

Additional observations from a re-analysis of the deposited data

How the results depend on the processing

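Without 1 array the count of genes past the threshold ranged from 600 to 1139 in L-Myc against preSC (1748 with all arrays), 1360 to 3486 in C-Myc (3049), 544 to 2858 in N-Myc (3741) and 0 to 419 in C-Myc against N-Myc (0), where the 419 came without C-Myc 1. For the other retinoid genes the ranges were 1 to 4 (5), 3 to 12 (8), 2 to 8 (12) and 0 to 2 (0). With the replicate block 1033, 2389, 2845 and 0 genes passed, and 4, 7, 9 and 0 other retinoid genes. Only preSC has a replicate 3, so the block fits preSC 3 exactly. Its differences from preSC are those found without preSC 3, such as -3.82 for Crabp1 in L-Myc, so it is not a separate check from leaving out that array. Deviations from the group means of same-numbered arrays correlated at 0.14 to 0.44 among the transduced groups. They correlated at 0.13 to 0.65 between preSC 1 and each group, and at -0.68 to -0.01 between preSC 2 and each group. In groups of 2 arrays the deviations mirror each other, and preSC 1 and preSC 2 differed over 2-fold at only 29 probe sets. The opposite signs follow from this, so these values cannot tell whether the replicate numbers pair the arrays. With only the arrays of the groups compared, 1425 genes passed in L-Myc, 1827 in C-Myc and 4883 in N-Myc against preSC, and 4, 7 and 16 other retinoid genes; the cause was not tested. Centring the arrays turned the split from 706 higher and 1042 lower to 1144 and 702 in L-Myc, from 1286 and 1763 to 2064 and 1192 in C-Myc, and from 1617 and 2124 to 2662 and 1518 in N-Myc. On second-brightest probe sets Hoxb3 turned to 0.45 in C-Myc and 0.39 in N-Myc, and Ncoa3 to 0.35 and 0.50; the cause was not tested. Among the member differences recomputed, 292 moved by less than 1 SD of the replicates and 9 by more, all of Rarg or Aldh1a3. This count cannot show dependence on single arrays, since leaving 1 out of groups this small moves a mean by less than 1 SD. Changing the filter, or fitting only the groups compared, leaves a difference as it was. The C-Myc differences did depend on single arrays. Without C-Myc 1 and without C-Myc 2 they were -0.73 and 2.08 for Rarb, and -1.35 and -4.95 for Aldh1a1. Dim values, such as those of Crabp1 in transduced arrays, limit how large a difference can be measured.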
